A study of Mus musculus with 189 samples.

Results

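The genes described here are 5 transcription factor genes of the trophectoderm, Cdx2, Gata3, Elf5, Hand1 and Id2, taken by name from the 156 of 192 qPCR assays that passed the quality control recorded in the deposited table. All 5 passed, and each was read as its level relative to 3 control genes, as the share of samples in which it was detected, and as its pattern among the blastomeres of 16- and 32-cell embryos. The embryos came from superovulated F1 females (C57BL/6 x DBA/2) mated to C57BL6 males, and those beyond the zygote were grown in KSOMaa at low oxygen; MII oocytes came from the same kind of female without mating. No animal or embryo carried a mutation or received an agent that differed between stages. The data comprised 11 MII oocytes, 14 zygotes, and 21, 7, 12, 27, 26 and 50 samples of the 2-, 3-, 4-, 8-, 16- and 32-cell stages. Zonae were digested with proteinase and blastomeres parted in trypsin and picked by pipette, with no record here of which cells of an embryo were picked. The samples of cleaving embryos were mostly single blastomeres, with small groups of blastomeres at the later stages and 3 whole embryos at each of the 2-, 4- and 8-cell stages. Single cells could be told from the labels for 15 of the 21 samples at the 2-cell and 5 of the 7 at the 3-cell stage. Some others labelled as blastomeres there have no clear cell number. Whole 16- and 32-cell embryos (3 each), 1 isolated inner cell mass (ICM), 1 isolated trophectoderm (TE) and dilutions of embryonic stem cell (ESC) RNA were read apart from these.

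The trophectoderm is the outer epithelium of the blastocyst and the source of the placenta, and it separates from the ICM, which gives rise to the embryo proper. In outer cells the Hippo pathway is less active, the co-activator Yap1 enters the nucleus and binds Tead4, and this pair switches on Cdx2 and Gata3. CDX2 represses ICM genes such as Pou5f1 and Nanog, GATA3 acts beside CDX2, ELF5 maintains trophoblast stem cells after implantation, HAND1 drives trophoblast giant cells, and ID2 is an inhibitor of basic helix-loop-helix factors such as HAND1 that is known as an early marker of outer cells.

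The sequences just upstream of the start sites of Cdx2, Gata3 and Elf5 are shown because the first pair of genes rose at the same stage and varied together among late blastomeres, whereas Elf5 had no signal between the 2- and 8-cell stages and came back after them. Each is the 250 bases before a start site listed by RefSeq on GRCm38.p6, read on the strand of the gene, for Cdx2 at chr5:147307250-147307499 (minus strand), for Gata3 at chr2:9878601-9878850 (minus strand, upstream of a start site that lies inside the outer bounds of the gene) and for Elf5 at chr2:103411848-103412097 (plus strand). Capitals mark matches, on either strand, to the TEAD core GGAATG or the GATA motif AGATAA.
Cdx2: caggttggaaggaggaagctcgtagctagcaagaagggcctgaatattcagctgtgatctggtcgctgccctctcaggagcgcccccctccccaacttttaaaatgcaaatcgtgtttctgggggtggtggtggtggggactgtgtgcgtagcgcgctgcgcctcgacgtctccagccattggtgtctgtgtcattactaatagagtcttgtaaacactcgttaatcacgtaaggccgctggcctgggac
Gata3: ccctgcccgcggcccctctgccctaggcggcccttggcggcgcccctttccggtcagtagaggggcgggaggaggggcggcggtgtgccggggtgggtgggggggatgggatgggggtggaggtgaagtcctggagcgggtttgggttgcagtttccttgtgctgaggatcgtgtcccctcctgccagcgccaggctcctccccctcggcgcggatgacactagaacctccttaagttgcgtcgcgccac
Elf5: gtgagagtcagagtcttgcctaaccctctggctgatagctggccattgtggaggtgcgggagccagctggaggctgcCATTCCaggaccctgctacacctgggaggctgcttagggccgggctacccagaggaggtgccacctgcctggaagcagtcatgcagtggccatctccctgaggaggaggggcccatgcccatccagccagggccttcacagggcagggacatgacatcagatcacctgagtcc
The Elf5 window held 1 TEAD core, read as CATTCC on this strand, and no GATA motif, and the windows of Cdx2 and Gata3 held neither. Of 32851 such windows in the table, 12.6% held the TEAD core and 9.99% the GATA motif. An E-box (CANNTG, the kind of site that basic helix-loop-helix factors bind), not marked above, occurred once or more in 66.2% of windows, with 1 match in the Cdx2 window, 0 in that of Gata3, 4 in that of Elf5 and 1 in that of Id2 (chr12:25096093-25096342, minus strand). A second start site of Elf5 in the table, with its window at chr2:103423818-103424067 (plus strand, not printed), had 0 TEAD cores, 0 GATA motifs and 1 E-box. These matches describe the letters of the windows only.

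Levels were taken as 30 minus the cycle threshold (Ct), less the average of that quantity for Hnrnpr, Ssu72 and Ube2e1 in the sample, so that 0 is the mean level of the control genes and 1 unit is a doubling. A gene without signal was deposited with a Ct of 30. Its level then equals the negative distance of the control genes from 30 and differs between samples: it was -18.10 to -16.60 in zygotes, -16.31 to -11.25 in 2-cell samples and -16.19 to -9.78 in 32-cell samples. The median Ct of the control genes was 12.9 in MII oocytes and 15.4, 16.0 and 17.7 in the samples of 8-, 16- and 32-cell embryos, so fewer template copies were read per sample at the last stage. In 3 repeats of ESC RNA, Id2 was detected each time with an SD of 0.0913 cycles and Cdx2 each time at a Ct of 20.7 to 21.4, but Hand1 was detected in 2 of the 3 repeats, and Gata3 and Elf5 in 1, at a Ct of 21.1 to 22.1. A missing signal in a single blastomere can therefore not be told apart from a level near the limit of the assay, and the part of template amount in the detection counts was not tested. Fewer cells of a type and less RNA per cell cannot be told apart in samples of more than 1 cell. Of the markers read for the stages, the ICM genes Nanog and Fgf4 were detected in 0 of 11 MII oocytes, which allows a share of up to 27.3% (here and below 3 samples over the number read, for counting error only, whereas the plot of detection shares shows exact intervals). In the stage comparisons below, Nanog, Fgf4 and the ICM marker Esrrb rose from the zygote to the 2-cell stage. Sox2, also an ICM marker, was not called there, and it fell to the 4-cell and again to the 8-cell stage. Krt8, a keratin of the trophectoderm, was detected in all 76 samples of the late stages, with levels from -8.88 to 1.91 at the 32-cell stage.

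Across the stages the 5 genes took different courses. Cdx2, Gata3, Elf5 and Id2 were already detected in the oocyte, and Hand1 was not. Elf5 was near the study's expression threshold of -10 there, with a mean of -10.52 and 6 of 11 oocytes above it. The study names Elf5 among zygotically expressed genes. Transcripts of Gata3 and Elf5 were detected in few or no samples between the 2- and 4-cell stages, those of Cdx2 by the 4-cell stage, and Id2 kept a signal in most samples throughout. Hand1 and Gata3 were detected in every 8-cell sample, Cdx2 in every 16-cell sample, and Elf5 came back in a part of the 16- and 32-cell samples.

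**Figure D1:**
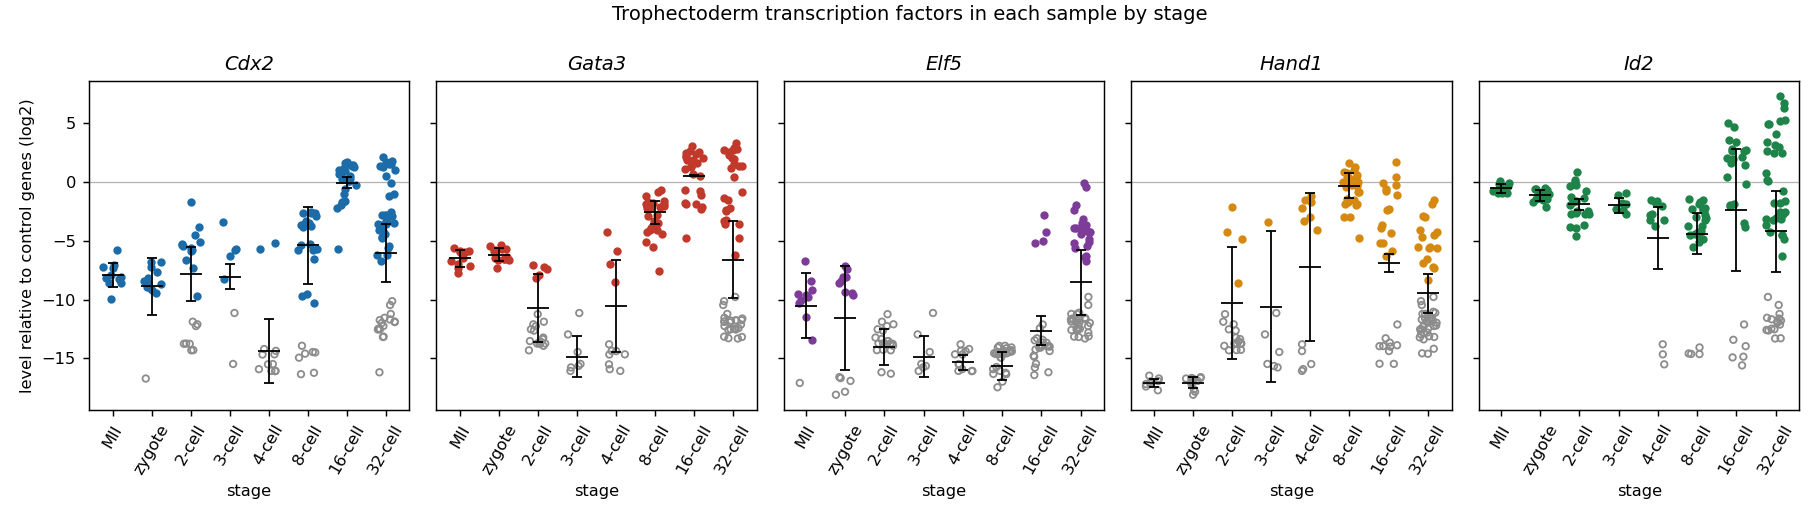
Level of each gene relative to the mean of the 3 control genes (log2, vertical axis) in each sample, by stage; filled points are detected, hollow grey points are samples without signal, and the bar and whiskers give the mean and SD over embryos. Hand1 is without signal in all oocytes and zygotes and is filled in all 27 samples at the 8-cell stage, where its embryo mean of -0.30 is its highest.

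Cdx2 was detected in 11 of 11 MII oocytes, where its level ran from -9.93 through a median of -8.08 to -5.83. It was detected in 13 of 14 zygotes, 13 of 21 samples at the 2-cell stage and 5 of 7 at the 3-cell stage, but in only 2 of 12 at the 4-cell stage, both of them blastomeres of the same embryo at -5.72 and -5.21. All other 4-cell samples, the 3 whole embryos among them, gave no signal. At the 8-cell stage 20 of 27 samples had a signal, with levels from -16.35 (no signal) through a median of -5.73 to -2.53. All 26 samples at the 16-cell stage had one, from -5.70 through 0.35 to 1.73, and 34 of 50 at the 32-cell stage, from -16.19 (no signal) through -4.12 to 2.13. The share of samples with a signal was thus lowest at the 4-cell stage.

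Gata3 was detected in all 11 oocytes, at levels from -7.76 through -6.45 to -5.58, and in all 14 zygotes, from -7.28 through -6.26 to -5.36. It was then detected in 5 of 21 samples of 2-cell and 0 of 7 of 3-cell embryos, where the latter allows a share of up to 42.9%. Of the 4-cell samples 4 of 12 had a signal. The 4 comprised all 3 whole embryos, at -6.99, -5.89 and -8.51, and 1 of 9 single blastomeres, at -4.26. All 27 samples at the 8-cell stage were detected, from -7.53 through -2.24 to -0.71, and all 26 at the 16-cell stage, from -4.75 through 1.30 to 3.03. At the 32-cell stage 26 of 50 samples had a signal, and levels spread from -13.31 (no signal) through -5.49 to 3.29. Oocyte and 8-cell levels overlapped at their edges, and the 16-cell levels mostly lay above both.

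Elf5 was detected in 10 of 11 oocytes and 9 of 14 zygotes, with detected levels between -13.46 and -6.74 in oocytes. It was detected in none of the next 4 stages, 0 of 21, 0 of 7, 0 of 12 and 0 of 27 samples, which allow shares of up to 14.3%, 42.9%, 25% and 11.11%. The gene was detected again in 4 of 26 samples at the 16-cell stage, the highest at -2.80, and in 23 of 50 at the 32-cell stage, with a median over detected samples of -4.16 and a highest level of -0.09. No Elf5 level reached the mean of the control genes at either stage.

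Hand1 was detected in 0 of 11 oocytes and 0 of 14 zygotes, which allow shares of up to 27.3% and 21.4%. Signals appeared in 4 of 21 samples at the 2-cell stage, at -2.12 and -4.28 in 2 whole embryos and at -4.81 and -8.62 in 2 blastomeres, then in 1 of 7 samples of 3-cell and 7 of 12 of 4-cell embryos. At the 8-cell stage all 27 samples were detected, from -4.78 through -0.29 to 1.58. At the 16-cell stage 16 of 26 samples were detected, with a range from -15.47 (no signal) through -5.20 to 1.72, and at the 32-cell stage 17 of 50, from -14.62 (no signal) through -11.59 to -1.53. The highest 32-cell level thus lay below the 8-cell median.

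Id2 was the only gene of the 5 detected in every sample up to the 3-cell stage. Its levels ran from -0.97 through -0.57 to 0.11 in oocytes, from -2.16 through -1.11 to -0.53 in zygotes, and from -4.57 through -1.93 to 0.82 at the 2-cell stage. From the 4-cell stage on it was missing in some samples of each stage, with 9 of 12, 23 of 27, 20 of 26 and 34 of 50 detected. Levels at the 16-cell stage ran from -15.60 (no signal) through 0.93 to 5.00 and at the 32-cell stage from -13.31 (no signal) through -3.10 to 7.32. The level of 7.32 was the highest of any of the 5 genes in any sample.

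**Figure D2:**
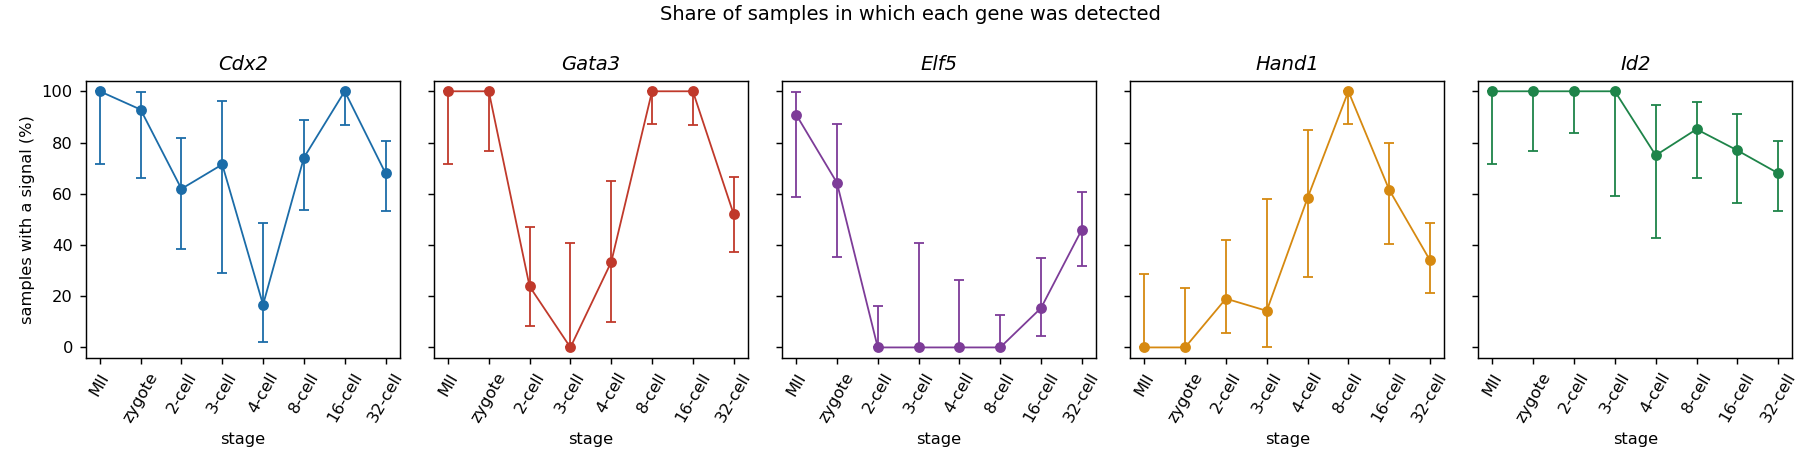
Share of samples with a signal (percent, vertical axis) for each gene by stage; whiskers are exact 95% binomial intervals, which cover counting error only. Elf5 lies at 0 from the 2- to the 8-cell stage, and Cdx2 has its lowest share, 16.7%, at the 4-cell stage.

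Consecutive stages were compared with limma, which fitted the means of oocytes or embryos of all 8 stages together and adjusted p-values over all 156 genes by the Benjamini-Hochberg method. The units were 11 oocytes, 14 zygotes and 8, 3, 6, 7, 2 and 7 embryos from the 2- to the 32-cell stage, and a gene was called at an adjusted p below 0.05. The 11 blastomeres at the 2-cell stage whose embryo is not named entered as 1 unit. Between oocytes and zygotes limma called none of the 5 genes, with 1.92% of all genes called, and adjusted p-values for the 5 ran from 0.71 to 1.00.

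Between the zygote and the 2-cell stage 2 of the 5 genes were called, where 68.6% of all genes were. Gata3 fell by 4.51 (SE 0.92, adjusted p = 2.1e-05 by limma), from an embryo mean of -6.18 ± 0.55 (SD, n = 14) to -10.69 ± 2.89 (SD, n = 8). Hand1 rose by 6.78 (SE 1.34, adjusted p = 1.3e-05), from -17.07 ± 0.47 (SD, n = 14) to -10.28 ± 4.78 (SD, n = 8). Both means of Hand1 rest largely on samples without signal, whose assigned level was itself higher at the 2-cell stage. With every level under -10 set to -10, the rise of Hand1 was 2.04 (SE 0.83, adjusted p = 0.026) and the difference of Gata3 was -2.74 (SE 0.56, adjusted p = 2.2e-05). Elf5, which differed by -2.47 (SE 1.25, adjusted p = 0.073), was called with this floor (-0.99, SE 0.45, adjusted p = 0.044), without Ube2e1 as a control gene (adjusted p = 0.027), in the deposited normalized table (adjusted p = 0.028) and without normalization (adjusted p = 3.5e-05). Cdx2 differed by 1.04 (SE 1.00, adjusted p = 0.36), and over detected samples only it rose by 2.10 (SE 0.57, adjusted p = 0.00095).

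Between the 2- and 4-cell stages 2 of the 5 were called, where 32.7% of all genes were. Cdx2 fell by 6.56 (SE 1.22, adjusted p = 7.7e-05), from -7.83 ± 2.27 (SD, n = 8) to -14.39 ± 2.70 (SD, n = 6), and with levels floored at -10 the difference was -2.29 (SE 0.77, adjusted p = 0.019). Single cells alone gave -4.74 (adjusted p = 0.066 by limma). Id2 fell by 2.88 (SE 0.95, adjusted p = 0.018), and over detected samples only its difference was -0.72 (SE 0.50, adjusted p = 0.25). With every sample a unit the difference of Id2 was -3.52 (SE 2.05, adjusted p = 0.18) with the embryo as a random block and -3.66 (adjusted p = 0.10) with the replicate block, and -1.59 (adjusted p = 0.32) without normalization. Hand1 differed by 3.08 (SE 1.63, adjusted p = 0.14), which was not called, but 4 alternatives called it, among them detected samples only, with 2.55 (SE 0.93, adjusted p = 0.035). Another of the 4 was the replicate block, which takes sister samples as independent. Over detected samples only the difference of Cdx2 was 0.71 (SE 1.29, adjusted p = 0.67), so its fall rests on the samples without signal. The 4-cell means of Hand1 ran from -15.49 to -1.74 among 6 embryos.

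Between the 4- and 8-cell stages 3 of the 5 rose, where 49.4% of all genes were called and most of those (56 of 77) fell. Cdx2 rose by 8.99 (SE 1.26, adjusted p = 2.9e-08), to -5.40 ± 3.31 (SD, n = 7). Gata3 rose by 7.97 (SE 1.15, adjusted p = 5.2e-08), to -2.59 ± 0.97 (SD, n = 7), and Hand1 rose by 6.91 (SE 1.68, adjusted p = 0.00048), to -0.30 ± 1.03 (SD, n = 7). The median of the 5 genes was 6.91, against -0.51 over all 156 genes. Over detected samples only, Gata3 still rose by 3.82 (SE 0.52, adjusted p = 2.3e-08) and Hand1 by 2.11 (SE 0.83, adjusted p = 0.036), whereas Cdx2 differed by 1.15 (SE 1.29, adjusted p = 0.46), with 2 detected samples at the 4-cell stage. Elf5 and Id2 differed by -0.32 and 0.38, neither of them called.

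The 16-cell stage holds only 2 embryos, so every comparison with it is imprecise. From the 8- to the 16-cell stage 2 of the 5 were called, where 28.2% of all genes were. Cdx2 rose by 5.35 (SE 1.82, adjusted p = 0.023), to -0.05 ± 0.46 (SD, n = 2), and Hand1 fell by 6.63 (SE 2.42, adjusted p = 0.035), to -6.92 ± 0.76 (SD, n = 2). Neither call held without either of the 2 embryos: the adjusted p was 0.12 for Cdx2 and 0.14 for Hand1 without mor.4, and 0.20 and 0.25 without mor.5. Cdx2 was not called without normalization (3.99, adjusted p = 0.23) or in the deposited normalized table (3.47, adjusted p = 0.13), nor was Hand1 over detected samples only (-2.13, adjusted p = 0.14). Gata3 differed by 3.13 (SE 1.66, adjusted p = 0.18), and was called with levels floored at -10 (adjusted p = 0.017). Id2 differed by 2.05 (adjusted p = 0.34), and by 4.63 (SE 0.74, adjusted p = 1.9e-06) over detected samples only. Without mor.5, in which Id2 was low, it rose by 5.71 (SE 1.72, adjusted p = 0.021), and it then fell by 5.49 (SE 1.72, adjusted p = 0.043) to the 32-cell stage. From the 16- to the 32-cell stage, where 10.9% of all genes were called, Cdx2 fell by 5.99 (SE 1.82, adjusted p = 0.019) and Gata3 fell by 7.15 (SE 1.66, adjusted p = 0.0016), and neither was called without mor.4 (adjusted p = 0.18 and 0.0530). Without mor.5 the difference of Cdx2 was likewise not called (adjusted p = 0.19). Over detected samples only, these differences were -2.43 (adjusted p = 0.11) and -0.96 (adjusted p = 0.37), so samples without signal carried most of the fall.

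The 8- and 32-cell stages had 7 embryos each. Between them 3 of the 5 were called, where 62.2% of all genes were. Hand1 fell by 9.18 (SE 1.61, adjusted p = 2.7e-06), to -9.48 ± 1.67 (SD, n = 7), and over detected samples only it fell by 5.01 (SE 0.70, adjusted p = 1.4e-06). Elf5 rose by 7.13 (SE 1.51, adjusted p = 6.7e-05), from no signal in any sample to -8.54 ± 2.76 (SD, n = 7), and by 2.56 (SE 0.54, adjusted p = 5.1e-05) with levels floored at -10. Gata3 fell by 4.02 (SE 1.11, adjusted p = 0.0015), but over detected samples only it rose by 2.17 (SE 0.46, adjusted p = 7.4e-05), because 24 of 50 samples at the 32-cell stage had no signal and the others lay mostly above the 8-cell levels. Cdx2 differed by -0.64 (SE 1.21, 95% interval -3.07 to 1.79, adjusted p = 0.66), and its direction was not settled. It was 1.83 (adjusted p = 0.010) over detected samples only, -3.97 (adjusted p = 0.0084) without normalization and -3.67 (adjusted p = 0.0075) in the deposited normalized table. The difference was also above 0 with the embryo as a random block (1.36), in single cells only (0.88) and without whole embryos (0.99). With the replicate block it was 2.16, but that fit takes sister samples as independent, so its p-value is not given. Id2 differed by 0.22 (SE 0.94, adjusted p = 0.87), and its direction turned too: 2.89 (SE 0.49, adjusted p = 1.2e-06) over detected samples only, -3.11 (adjusted p = 0.011) without normalization and -2.81 (adjusted p = 0.0051) in the deposited normalized table.

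Ordered by embryo mean, Cdx2 was highest at the 16-cell stage, followed by the 8-cell, 32-cell and 2-cell stages, and lowest at the 4-cell stage. In this order limma separated the 16-cell from the 8-cell stage and the zygote from the 4-cell stage (adjusted p = 1.4e-05), and no pair of neighbours in between. For Gata3 the order ran from the 16-cell, 8-cell, zygote, MII and 32-cell stages to the 4-, 2- and 3-cell stages, with separations between the 8-cell stage and the zygote (adjusted p = 0.00064), the 32- and 4-cell stages (adjusted p = 0.0022) and the 2- and 3-cell stages (adjusted p = 0.049), the last of which had no detected sample. Elf5 and Id2 had no pair of neighbours that differed. The highest mean was at the 32-cell stage for Elf5 (-8.54) and in MII oocytes for Id2 (-0.54 ± 0.38, SD, n = 11). For Hand1 the 8-cell stage stood above the 16-cell stage, and the 3-cell stage above the zygote (adjusted p = 0.0028, with 1 of 7 samples detected), with no difference called between the neighbours from the 16- to the 3-cell stage. A gene without signal takes a level of -18.10 to -16.60 in zygotes and of -16.08 to -11.15 at the 3-cell stage. The separations of the 3-cell stage for Hand1 and Gata3 thus rest in part on assigned levels.

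The other genes linked to the trophectoderm on the chip (9 genes: Krt8, Krt19, Dppa1, Tspan8, Tead4, Lats2, Yap1, Nf2 and Fgfr2) moved in both directions. This list holds Hippo pathway genes such as Lats2, Yap1 and Tead4 beside markers, and the study reported that Yap1 went with ICM markers in late blastomeres. Its directions are therefore not those of trophectoderm markers alone. The share called of all genes was 49.4% from the 4- to the 8-cell stage, 68.6% from the zygote to the 2-cell stage and 62.2% from the 8- to the 32-cell stage, against 6 of the 9 in each of these steps. From the 4- to the 8-cell stage 3 of 9 rose, the keratin gene Krt8, the Hippo kinase gene Lats2 and the FGF receptor gene Fgfr2, and 3 fell, Dppa1, Yap1 and Nf2, with a median of 0.34. From the zygote to the 2-cell stage 4 rose, among them Tead4, the DNA-binding partner of Yap1, and 2 fell. From the 8- to the 32-cell stage 5 of 9 rose (Krt8, Krt19, Dppa1, Yap1 and Nf2) and Tead4 fell, with a median of 0.65 against 0.77 over all genes. Of 9 genes of the ICM (Pou5f1, Sox2, Nanog, Klf2, Klf4, Esrrb, Fgf4, Pecam1 and Prdm14), 2 rose and 1 fell from the 4- to the 8-cell stage, and 4 rose and 1 fell from the 8- to the 32-cell stage. The study placed 3 of the 5 factors, 5 of the 9 trophectoderm-linked genes and 7 of the 9 ICM genes into lineage sets by their correlation in these same blastomeres, so their late pattern is not independent evidence of their names.

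Whole embryos give the signal read per embryo, since no control gene is subtracted, and they average over all cells. Differences in yield between samples stay in this scale, and their part was not tested. In them 30 minus the Ct was compared with limma between sets of 3 embryos, with p-values adjusted over 156 genes, and embryos without signal entered at the assigned Ct of 30. From the 2- to the 4-cell stage Cdx2 was the only one of all genes called (0.641% of genes). It was read at a Ct of 20.3, 23.5 and 21.7 in 2-cell embryos and gave no signal in any of 3 embryos at the 4-cell stage (a difference of -8.16, SE 0.85, adjusted p = 6.6e-05). From the 4- to the 8-cell stage Cdx2 rose by 13.61 (SE 0.85, adjusted p = 1.8e-07), to a Ct of 16.6, 15.1 and 17.6, and Gata3 rose by 6.21 (SE 1.75, adjusted p = 0.033), with 17.3% of genes called. The 8-cell embryos all lay above all 4-cell embryos for both, where every 4-cell embryo stood at the assigned Ct of 30 for Cdx2. How many of all genes separated in this way was not counted. The call of Gata3 was lost without any of 5 of the 6 embryos compared (adjusted p = 0.0600 to 0.125). Hand1 differed by 7.66 (SE 3.65, adjusted p = 0.18), with 1 of 3 embryos at the 4-cell stage without signal and all 8-cell embryos detected at a Ct of 13.0, 12.2 and 14.3.

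From whole 8- to whole 16-cell embryos 4 of the 5 rose, where 84.6% of all genes rose and none fell, with a median of 2.79. Id2 rose by 7.19 (SE 0.89, adjusted p = 0.00011) and Cdx2 by 6.53 (SE 0.85, adjusted p = 0.00015), Gata3 by 6.05 (SE 1.75, adjusted p = 0.0075) and Elf5 by 8.08 (SE 2.36, adjusted p = 0.0075). Elf5 had no signal in any 8-cell embryo and in 1 of the 16-cell embryos, and was read at a Ct of 17.5 and 18.3 in the other two. Hand1 differed by 0.14 (SE 3.65, 95% interval -7.80 to 8.07). Relative to the control genes, which removes the general rise, Id2 still rose by 4.78 (SE 0.56, adjusted p = 0.00012) and Cdx2 by 4.11 (SE 0.80, adjusted p = 0.0036), with 30 of 156 genes called, whereas Gata3 (3.64, adjusted p = 0.075) and Elf5 (5.67, adjusted p = 0.084) were not called.

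From whole 16- to whole 32-cell embryos none of the 5 was called by limma, whereas 62.2% of all genes were and 95 of those 97 fell. At an unadjusted p under 0.05 the count among the 5 was also 0. Cdx2 was read at a Ct of 11.0, 9.76 and 8.81 in 16-cell embryos and of 10.9 to 12.2 in 32-cell embryos (a difference of -1.56, SE 0.85, adjusted p = 0.12). Gata3 differed by -0.97 (SE 1.75, 95% interval -4.78 to 2.83, adjusted p = 0.65). Hand1 was read at a Ct of 13.8, 12.5 and 12.9 in 16-cell and of 19.7, 20.7 and 18.9 in 32-cell embryos. The difference was -6.73 (SE 3.65, adjusted p = 0.12), where the median over all genes was -2.46. On the scale relative to the control genes Hand1 differed by -4.83 (SE 3.38, adjusted p = 0.31 by limma). Relative to the control genes Elf5 rose by 6.25 (SE 2.14, adjusted p = 0.043) and Id2 by 1.97 (SE 0.56, adjusted p = 0.020), with 32.7% of genes called, and Cdx2 and Gata3 differed by 0.34 and 0.93. The fall of Cdx2 and Gata3 seen in the means of isolated 32-cell blastomeres was thus not seen in whole embryos on that scale. The isolated samples are only a part of each embryo, and how they were picked was not tested as a source of this difference.

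**Figure D3:**
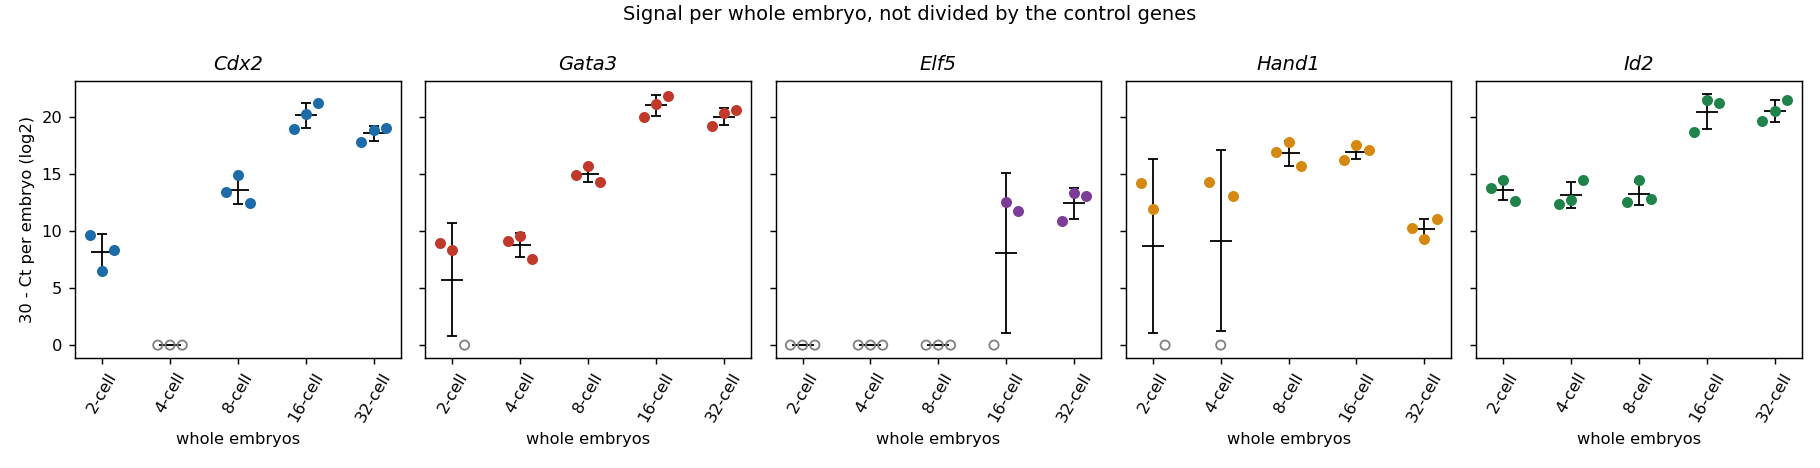
30 minus the Ct per whole embryo (log2, vertical axis, not relative to the control genes) at each stage with 3 whole embryos; hollow points at 0 are embryos without signal, bars and whiskers the mean and SD. Cdx2 is without signal in all 4-cell embryos and is read in every 8-, 16- and 32-cell embryo.

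The labelled ICM and TE samples are 1 sample each, so their values have no replicate check. Relative to the control genes Cdx2 was at 0.43 in the ICM and 1.84 in the TE sample, Gata3 at 1.53 and 2.73, Elf5 at -7.90 and -6.23, and Id2 at 2.27 and 2.59. Hand1 was detected in the ICM sample only, at -3.66, and without signal in the TE sample. The ICM marker Sox2 stood at -0.17 in the ICM and -6.01 in the TE sample, the primitive endoderm marker Pdgfra at 0.95 and -2.63, and Krt8 at -0.07 and 1.00. Of the 9 trophectoderm-linked genes, 8 were higher in the TE sample, by 0.0026 (Tead4) to 1.45 (Dppa1), and Krt19 was lower there, at -7.90 against -4.95. The 4 factors other than Hand1 were thus higher in the TE sample by 0.32 to 1.67, and the sample labelled ICM held all 5 factors together with Krt8.

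Among the 26 samples at the 16-cell stage, Cdx2 and Gata3 were detected in all. Both were above the mean of the control genes in 17 samples each, and Id2 in 14. The commonest combination was Cdx2, Gata3, Hand1 and Id2, in 11 samples, followed by Cdx2, Gata3 and Id2 in 7. At the 8-cell stage Gata3 and Hand1 had been detected together in all 24 blastomeres, with Cdx2 in 17 of them. At the 32-cell stage the combinations were more varied: Cdx2, Gata3, Elf5 and Id2 without Hand1 in 11 of 50 samples, none of the 5 genes in 5 samples, and all 5 in 3 samples. Single cells made up 20 of the 26 and 32 of the 50 samples. In single cells at the 32-cell stage Cdx2 was detected in 21 of 32, Gata3 in 14, Elf5 in 11, Hand1 in 8 and Id2 in 19, and in groups of cells in 13, 12, 12, 9 and 15 of 18, with a median control Ct of 18.1 and 16.7. Each gene was detected in a larger share of the groups at this stage, which also held more template, and the difference was not tested. At the 16-cell stage Elf5 was detected in 4 of 20 single cells and 0 of 6 groups.

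**Figure D4:**
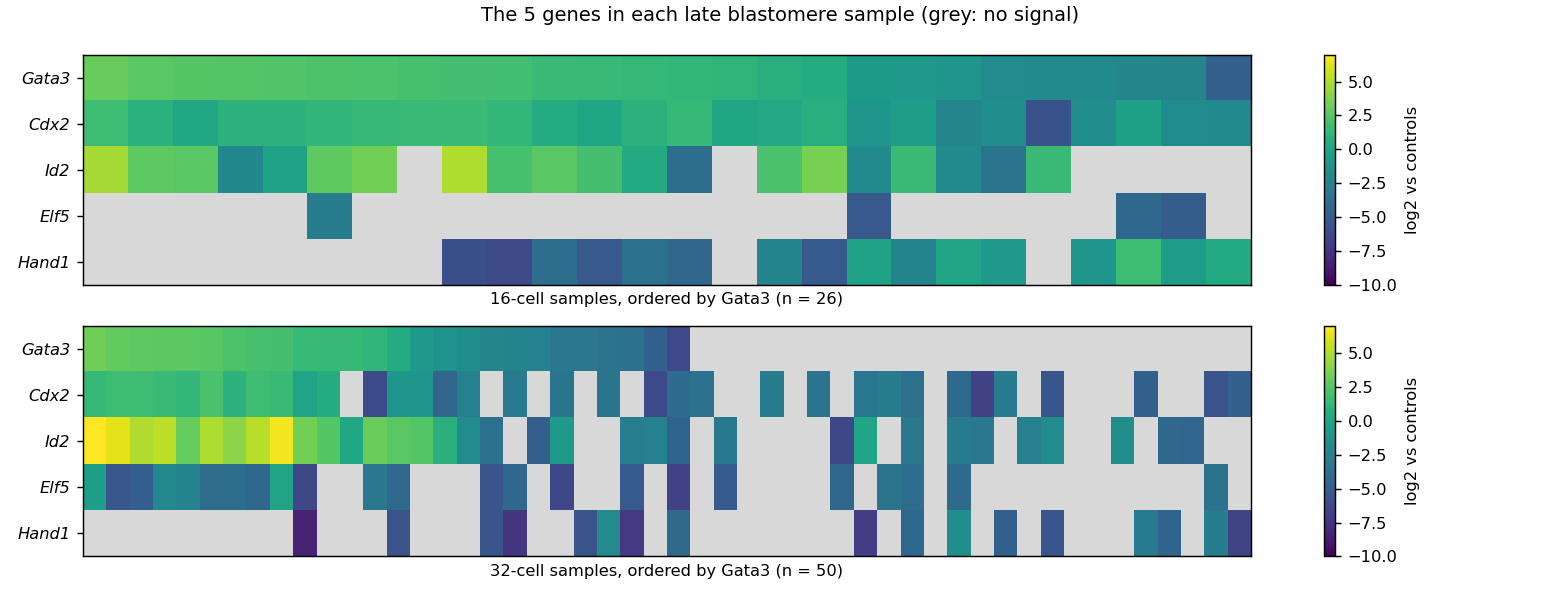
Level of each gene relative to the control genes (log2, colour) in each 16-cell (upper, n = 26) and 32-cell (lower, n = 50) blastomere sample, ordered from left to right by Gata3; grey means no signal. In the 3 samples of 32-cell embryos with the highest Gata3 (3.29, 2.90 and 2.79), Cdx2, Id2 and Elf5 are detected and Hand1 is not, whereas at the 16-cell stage Elf5 is detected in 4 samples only.

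Single samples, picked as the highest for a gene, serve as examples. The 16-cell blastomere with the highest Gata3, at 3.03, also had the highest Cdx2, at 1.73, and Id2 at 4.68, with no signal for Hand1 or Elf5. The blastomere with the highest Hand1, at 1.72, had Cdx2 at -0.28, Gata3 at -2.13 and Elf5 at -4.22, with no signal for Id2. At the 32-cell stage a pair of cells of embryo blast.13 had Gata3 at 3.29, Id2 at 7.32, Cdx2 at 1.40 and Elf5 at -0.44, and Hand1 gave no signal. A single cell of the same embryo had the highest Hand1, at -1.53, with Cdx2 at -4.15, Elf5 at -4.11 and no signal for Gata3. The 32-cell sample with the next highest Hand1, at -1.83, had Gata3 at -3.53. Since each sample was picked by its highest level of a gene, different samples for Gata3 and Hand1 carry no weight for how the genes relate.

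Over the 76 samples of both stages, Cdx2 and Gata3 had a Spearman rho of 0.84 (Pearson r 0.68), and 0.86 over the 47 samples in which both were detected. It was positive in 7 of 8 embryos with 5 or more samples, 0.79 at the 16-cell stage and 0.68 at the 32-cell stage. Gata3 and Id2 had a rho of 0.73, positive in 8 of 8 embryos, and Cdx2 and Id2 one of 0.59, positive in 7 of 8. These coefficients are descriptions across samples that share embryos, control genes and template amount, and a pair of genes without signal in the same sample takes the same level by construction. Without normalization the 3 values were 0.87, 0.77 and 0.66.

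Elf5 had a positive rho with Cdx2, Gata3 and Id2 at the 32-cell stage, but not with Hand1 (-0.083). There its rho over 50 samples was 0.59 with Gata3, 0.53 with Cdx2 and 0.44 with Id2. At the 16-cell stage, where 4 of 26 samples had a signal, it was -0.11 with Gata3 and -0.21 with Cdx2, and over both stages -0.00027 and -0.04. In the 3 embryos of the 32-cell stage with 9 or more samples, the rho between Gata3 and Elf5 was 0.80, 0.78 and 0.73. Without normalization it was 0.62 over the 32-cell samples.

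Hand1 had a negative rho with Cdx2, Gata3 and Id2 over both stages on the normalized scale. With Elf5 it was -0.10, with 4 embryos positive and 4 negative. Its rho with Gata3 was -0.36 (Pearson r -0.13) over both stages, -0.75 at the 16-cell stage and -0.40 at the 32-cell stage, and was negative in 6 of 8 embryos. With Id2 it was -0.41, and with the mean of the 9 ICM genes 0.41, positive in 8 of 8 embryos. At the 16-cell stage the rho with Gata3 was -0.59 in embryo mor.4 and -0.76 in mor.5. Without normalization, where samples with more template score higher for every gene, the values were 0.05 over both stages, -0.43 among 16-cell and -0.16 among 32-cell samples, -0.17 in mor.4 and -0.61 in mor.5. Both the size and the sign of the relation over both stages thus rest on the scale, and in the 32-cell embryos blast.08 and blast.09 it went from -0.04 to 0.06 and from -0.18 to 0.32. The rho of the ICM mean with Cdx2, Gata3, Elf5 and Id2 was -0.72, -0.75, 0.17 and -0.57, negative in 7, 6, 4 and 6 of 8 embryos. Without normalization these values were -0.31, -0.36, 0.05 and -0.39. At the 32-cell stage alone, normalized, they were -0.43, -0.52, -0.27 and -0.54.

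**Figure D5:**
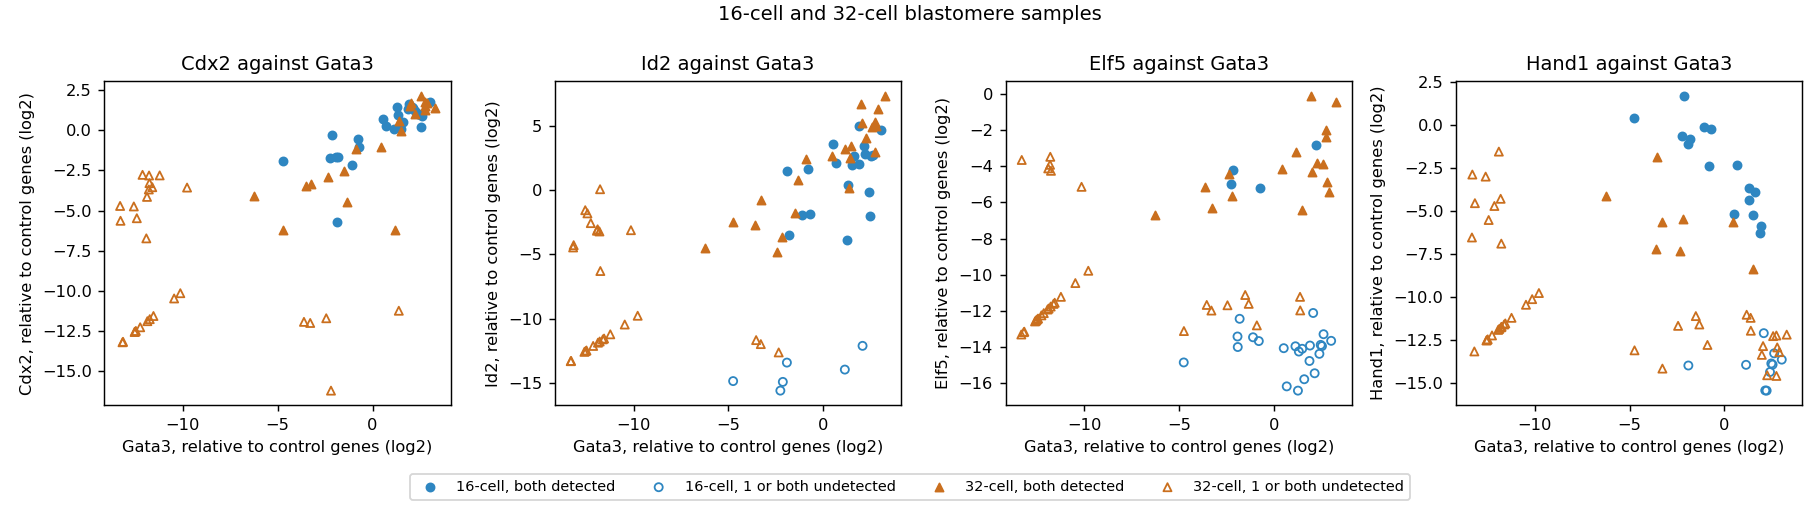
Levels of Cdx2, Id2, Elf5 and Hand1 against Gata3 (both axes log2 relative to the control genes) in the 76 late blastomere samples; circles are 16-cell, triangles 32-cell samples, and hollow symbols have no signal for 1 or both genes, so that those without either lie on a diagonal. Cdx2 and Id2 rise with Gata3 among filled points, and filled points of Hand1 at the 16-cell stage descend.

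The spread among sister samples differed between the genes. At the 8-cell stage the SD within an embryo was 0.58 to 1.12 for Hand1 and 0.97 to 1.80 for Gata3 over 3 embryos with 5 or more samples, and 1.63 to 5.66 for Cdx2 and 1.18 to 5.80 for Id2, which each had samples without signal. At the 16-cell stage it was 1.31 and 1.97 for Cdx2 in the 2 embryos, against 1.63 and 2.44 for Gata3 and 5.80 and 6.51 for Hand1. At the 32-cell stage it was 4.86 to 7.21 for Gata3 and 4.07 to 5.97 for Cdx2 over 6 embryos. Within 1 of the 8-cell embryos, 8c.e4, Gata3 still ran from -7.53 to -2.03 and Hand1 from -4.78 to -1.42. The SDs of Hand1 were thus smaller at the 8-cell stage than at the later stages, where samples without signal enter them, and those of Gata3 overlapped between the 8- and 16-cell stages. The 16-cell embryos themselves differed in Id2, which was detected in 13 of 13 samples of mor.4, with a mean of 1.31, and in 7 of 13 of mor.5, with a mean of -6.02. Among 32-cell embryos Elf5 was detected in 6 of 6 samples of blast.13, with levels from -5.16 to -0.09, and in 0 of 3 of blast.11.

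Of all genes on the chip, those most like each factor over the 76 late samples were, by Spearman rho, Gata3 (0.84), Krt8 (0.79) and Tead4 (0.75) for Cdx2, and Cdx2, Krt8 (0.84) and Dppa1 (0.75) for Gata3. For Id2 they were Dppa1 (0.76), Krt8 (0.74) and Gata3 (0.73). Elf5 was most like the histone methyltransferase genes Setdb1 (0.60), Setd5 (0.52) and Setd3 (0.50) over both stages, between which its detection differed, while at the 32-cell stage alone its rho was 0.59 with Gata3, 0.54 with Krt8 and 0.53 with Cdx2. Hand1 was most like Hdac1, a histone deacetylase gene (0.52), Carm1 (0.48) and Jhdm1d (0.46). The lowest rho was with Pdgfra, a receptor of the primitive endoderm, for Cdx2 (-0.76), Gata3 (-0.72) and Id2 (-0.55), with the Polycomb gene Eed for Elf5 (-0.45) and with Dppa1 for Hand1 (-0.45). Over the 8 stage means the highest Pearson r was with Krt8 (0.92) and Cbx6 (0.86) for Cdx2, Fgfr2 (0.90) and Gata6 (0.85) for Gata3, Mll1 (0.90) and Cbx5 (0.88) for Elf5, Fgfr3 (0.94) and Ehmt2 (0.83) for Hand1, and Kdm6b (0.87) and Phf19 (0.85) for Id2. These values rank the other genes on the same samples and carry no test.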

How the data were processed

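The authors preamplified RNA of each sample for 18 cycles with all primers and read 192 assays by EvaGreen qPCR on BioMark chips. They deposited Ct values for 189 samples, entered here as a score on which lower means more transcript, with 30 for no signal, and a normalized table in log2 units. Their deposited log2 values equal 30 minus the Ct relative to Gapdh, Hspa8 and Lmnb1 within 1.03e-08 and were used as an alternative only, since the methods name Hnrnpr, Ssu72 and Ube2e1, relative to which values differed by up to 7.43. Main values were computed from the Ct with these 3 control genes.

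The 5 factors and all gene lists were chosen with earlier results of these data known. Genes outside the lists were named by rank of rho or r. The 168 samples are those of the main stages without 3 samples (1 MII oocyte and 2 blastomeres of the 32-cell stage) that the study's own list leaves out. The source names of the 16-cell samples are ambiguous between morula and blastocyst, their stage label gives a 16-cell morula, and blastomere numbers run past the cell number there. Stages were compared with limma 3.58.1 in R 4.3.3 (lmFit and eBayes), and p-values are two-sided. The calling was also run on simulated data, but no outcome of that run is given. Nothing is concluded from it for the present data, which hold assigned levels and a spread that differs between stages. Replicates are separate oocytes and embryos, and n of samples counts blastomeres that share embryos. There is no read depth in qPCR, and precision is limited by the number of embryos and by signals near the detection limit. Samples were grouped by the labels' stage. Python 3.11.15 with pandas 2.3.3, numpy 2.4.6 and scipy 1.17.1 was used for the rest. Alternatives changed the control genes, normalization, floor, filter (genes detected in at least 10% of samples, which all 156 passed), unit of replication and samples. Undetected values left out, and each stage alone without normalization, were chosen after seeing the data. Upstream sequences are from RefSeq (4 of 5 genes matched; Hand1 was not).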

Additional observations from a re-analysis of the deposited data

Results flagged for a closer look

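Within stages of 4 to 10 embryos, 20 sets of embryo means were examined for a value far from the rest, of which chance alone flags about 1 in 20, and 2 were found. The Cdx2 mean of the 4-cell embryo 4c.e5 was -9.00, with 2 of 3 blastomeres detected, whereas none of the other 5 embryos had a Cdx2 signal. Its gap to the next embryo was 0.80 of the range. The Hand1 mean of the 8-cell embryo 8c.e4 was -2.42, below the other 6 embryos, with a gap of 0.62 of the range and all 8 blastomeres detected. The same embryo had the lowest 8-cell mean of Cdx2 (-10.92) and of Gata3 (-4.17) and the highest of Id2 (-2.58).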

How the results depend on the processing

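The number of the 5 genes called between stages was 2 from the zygote to the 2-cell stage, and 4 without normalization. From the 2- to the 4-cell stage it was 2, and 1 without normalization, with every sample a unit and the embryo as a random block, with single cells only, or with undetected values left out. From the 8- to the 16-cell stage it was 2, and 1 without normalization or in the deposited normalized table, and from the 16- to the 32-cell stage it was 2, and 0 with undetected values left out. It was 3 from the zygote to the 2-cell stage without Ube2e1, in the deposited normalized table or floored at -10, 3 from the 8- to the 16-cell stage floored at -10, without whole embryos or with undetected values left out, and 3 from the 16- to the 32-cell stage with the embryo as a random block. Leaving out 1 embryo at a time moved the counts from the 8- to the 16-cell and from the 16- to the 32-cell stage between 0 and 2 (from the 8- to the 16-cell stage 0 without mor.4 and 1, Id2, without mor.5, and from the 16- to the 32-cell stage 0 without mor.4). From the 8- to the 32-cell stage it was 3, and 5 without normalization or in the deposited normalized table. In whole embryos the count from the 8- to the 16-cell stage was 4, and 2 relative to the control genes or to sample medians; from the 16- to the 32-cell stage it was 0, and 2 on both of these scales. Without 1 whole embryo at a time it ran from 1 to 2 between the 4- and 8-cell stages and from 0 to 1 between the 16- and 32-cell stages, the 1 being Hand1 without 1 of the 4-cell embryos, which enter only the shared spread (adjusted p = 0.044 by limma), or Elf5 without 1 of the 16-cell embryos (adjusted p = 0.034). The cause of these moves was not tested. Here and below, counts under an alternative were not set beside the share of all genes called under that alternative. They therefore do not tell whether the 5 genes differ from the rest.

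Equal replicate numbers did not pair the samples: over 420 pairs the median correlation of their deviations was -0.0074, and 86 were over 0.1. With the replicate block the counts were 4 from the 8- to the 16-cell stage and 4 from the 16- to the 32-cell stage. That fit takes every sample as a unit and sister samples as independent, so its counts overstate the replication.

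Some differences turned their sign. Cdx2 from the 2- to the 4-cell stage was 0.71 with undetected values left out. Cdx2 from the 8- to the 32-cell stage was 1.36 with the embryo as a random block, 2.16 with the replicate block, 0.88 in single cells only, 0.99 without whole embryos and 1.83 with undetected values left out, where Gata3 was 2.17. In whole embryos from the 16- to the 32-cell stage Cdx2 was 0.34 and Gata3 0.93 relative to the control genes, and 0.80 and 1.39 relative to sample medians. Elf5 was detected in 10 oocytes and was above -10 in 6.

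Of the rho values over both late stages, those that turned or moved by more than their spread among embryos mostly involved Elf5 and Hand1. At the 32-cell stage alone they were 0.53 for Cdx2 and Elf5, 0.59 for Gata3 and Elf5, 0.54 for Elf5 and Krt8, and -0.27 for Elf5 and the ICM mean. At the 16-cell stage alone they were 0.16 for Elf5 and Hand1, -0.24 for Elf5 and Id2, 0.63 for Hand1 and the ICM mean, and 0.45 for Cdx2 and Krt8. Without normalization they were 0.21 for Cdx2 and Elf5, 0.18 for Cdx2 and Hand1, 0.21 for Gata3 and Elf5, 0.055 for Gata3 and Hand1, 0.023 for Elf5 and Hand1, 0.25 for Elf5 and Krt8, and 0.18 for Hand1 and Krt8. Each stage alone without normalization gave 0.0054 (16-cell) and 0.59 (32-cell) for Cdx2 and Elf5, 0.0033 (32-cell) for Cdx2 and Hand1, 0.62 (32-cell) for Gata3 and Elf5, 0.32 (16-cell) and 0.10 (32-cell) for Elf5 and Hand1, and -0.21 (16-cell) and 0.56 (32-cell) for Elf5 and Id2.

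Over all counts, shares and rho values, 339 alternatives gave the same result within limits not given here, 30 moved and 20 reversed it. For single differences 481 gave the same result, 27 lost and 11 gained a call, and 11 reversed it. Some of these alternatives could not move a result. The filter removed no gene, and a stricter Ct limit for detection removed no signal of the factors. Leaving out an embryo of a stage not compared left the difference as it was. The counts of same results therefore do not measure how firm the results are. Signals near the detection limit, the assigned level of undetected samples and the 2 embryos of the 16-cell stage set the precision.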
